A study of Homo sapiens with 15 samples.

Results

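IL32 is the gene of interleukin 32, a cytokine, and its expression in MM cells cultured with and without bone marrow stromal cells is described here. It is 1 of 20468 RefSeq genes in the deposited tables and was chosen by its own values in these libraries, so its levels, ranks and differences are given as a description, without a test. Both MM lines, MM.1S and RPMI8226, are established and of human origin, and HS5 is an established line of human bone marrow stromal cells. The MM cells were kept for 48 h either alone (MONO), in the upper chamber of a transwell above HS5 cells (TSW), or in the lower chamber together with HS5 cells (CO), and live CD38+ CD90- cells were sorted before RNA-Seq. MM.1S had 3 libraries per condition and RPMI8226 had 2, which makes 15 libraries. In the methods of the study, TSW and CO cells came from the upper and lower chambers of the same transwell system, so both grew in medium shared with HS5 cells and only CO cells could touch them. The methods also give a trypsin step for the coculture conditions and name none for MONO. Coculture wells held MM cells in both chambers besides HS5 cells, and MONO wells held MM cells alone. In differences from MONO, the parts of these steps and of HS5 cells cannot be told apart. Each library held between 9008977 and 19050772 pair-end tags (PETs) on genes. Levels are RPKM, PETs per kilobase of transcript after scaling each library by its own total of PETs on genes. The cell lines were deposited in separate tables, and every test was made within a cell line.

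IL-32 is a pro-inflammatory cytokine without an established receptor of its own. It is made as several splice isoforms, which are found inside cells as well as secreted, and it is best known from T and NK cells, monocytes, and epithelial and endothelial cells, where TNF, interferon gamma, IL-1 and hypoxia can induce it. Proteinase 3 and integrins that hold the alpha V chain bind the protein, and in monocytes it can raise the production of TNF, IL-1 beta, IL-6 and CXCL8. The values here are per gene, so the isoforms cannot be told apart.

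IL32 lies on the plus strand of chromosome 16 in GRCh38, from 3065403 to 3069530. Part of its promoter is shown because the level of the gene differed widely between culture conditions. The stretch chr16:3065153-3065296, taken from RefSeq (GRCh38.p14), covers the 144 bases of the promoter window that precede the first annotated exon, 5′ to 3′ on the plus strand. The capitals mark the letters TGACGTCA, the consensus of the cyclic AMP response element, which begin 121 bases before the RefSeq start of the gene.
IL32: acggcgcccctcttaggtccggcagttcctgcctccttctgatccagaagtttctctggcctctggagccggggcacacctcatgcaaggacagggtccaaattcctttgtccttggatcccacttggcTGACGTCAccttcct
These letters were searched after the sequence had been seen, and 649 of 35116 promoter windows (1.85%) hold them. The other motifs, searched on both strands in windows of 250 bases before to 50 bases after each start, were AP-1 (TGANTCA), NF-kB (GGGNNTTTC), STAT (TTCNNNGAA), C/EBP (TTGCNNAA), a composite of ATF4 and C/EBP (TGATGNAA), ISRE (TTTCNNTTT), the hypoxia response element (ACGTG) and the TATA box (TATAAA). Of these, IL32 held a single match, GGGAGTTTC for NF-kB, which begins 99 bases before the RefSeq start, inside an exon of longer transcripts, and 4.78% of all windows hold such a match. A match of letters is a description of the window and not a measurement of binding.

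In MM.1S cells IL32 was close to absent in monoculture and high in both cocultures. The RPKM of IL32 in the 3 MONO libraries was 0.250, 0.197 and 0.340, from 3, 5 and 6 PETs. In TSW it was 84.9, 75.3 and 67.3, from 1612, 1524 and 1176 PETs, and in CO it was 94.2, 87.9 and 91.0, from 2019, 1795 and 1674 PETs. Every TSW and CO library lay far above every MONO library, and every CO library lay above every TSW library, the closest of them being 87.9 in CO and 84.9 in TSW. The mean RPKM of IL32 was 0.262 ± 0.0721 (SD, n = 3) in MONO, 75.8 ± 8.82 (SD, n = 3) in TSW and 91.0 ± 3.15 (SD, n = 3) in CO. The ratio of the mean RPKM was 289 for TSW over MONO and 347 for CO over MONO. With the PETs of each condition pooled, the ratio was 299 (95% interval 178 to 547) for TSW and 358 (213 to 655) for CO. These intervals cover counting error only, and their width follows from the 14 PETs of IL32 in MONO. In bulk libraries, fewer cells that express a gene and less RNA per cell cannot be told apart.

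In RPMI8226 cells IL32 was already well expressed in monoculture and rose further in coculture. Its RPKM in MONO was 61.9 and 62.9, from 1029 and 1240 PETs. In TSW the RPKM was 418 and 507, from 10319 and 12100 PETs, and in CO it was 567 and 569, from 12313 and 14239 PETs. The conditions did not overlap, and the order MONO, TSW, CO was the same as in MM.1S. Of all genes ranked, 36.0% in RPMI8226 TSW and 37.5% in RPMI8226 CO also had every library above those of MONO, as did 23.4% in each coculture of MM.1S. Mean levels were 62.4 ± 0.688 (SD, n = 2) in MONO, 463 ± 62.8 (SD, n = 2) in TSW and 568 ± 1.67 (SD, n = 2) in CO. TSW over MONO gave a ratio of the mean RPKM of 7.41, and CO over MONO gave 9.10. The counting intervals of the pooled ratios ran from 7.08 to 7.72 and from 8.71 to 9.50. The lines were fitted separately, and the level of IL32 was compared between them only in its order across conditions and not tested.

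**Figure D1:**
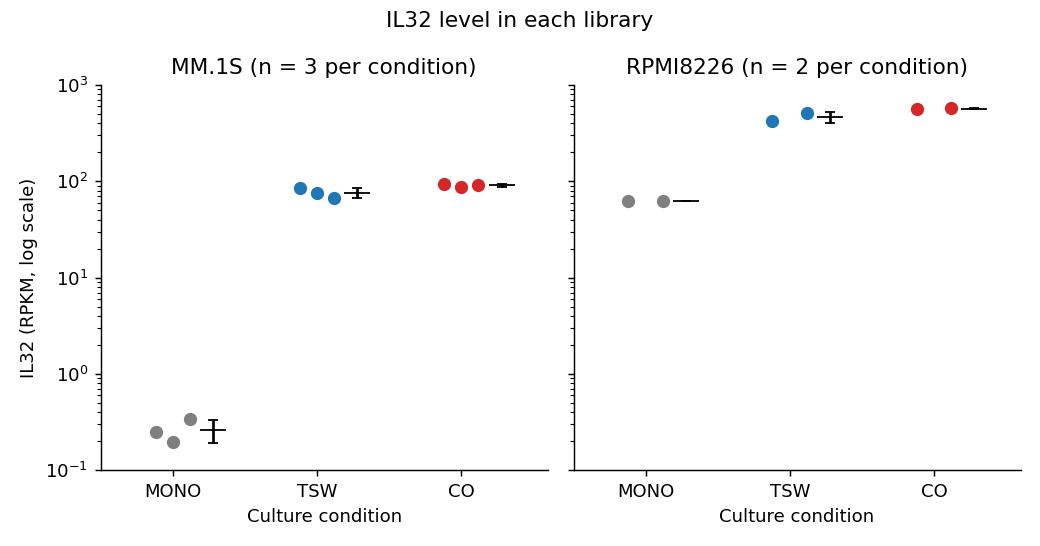
RPKM of IL32 on a log axis in each of the 15 libraries, grouped by cell line and culture condition, with a point for each library, and the mean and SD beside them. MM.1S MONO libraries sit between 0.197 and 0.340 and all other libraries sit at 61.9 or above.

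The difference of IL32 between CO and TSW was small beside that from MONO. In MM.1S the mean RPKM was higher in CO by 15.2, a ratio of 1.20 (counting interval 1.15 to 1.25), and the SD between TSW libraries was 8.82. RPMI8226 CO was higher by 106, a ratio of 1.23 (1.21 to 1.25), beside an SD of 62.8 between the TSW libraries. The replicates of TSW spread more than those of CO in both lines, with a coefficient of variation of 11.6% against 3.47% in MM.1S and 13.6% against 0.294% in RPMI8226. On the scale of log2(RPKM + 1), IL32 in CO was above TSW by 0.27 ± 0.10 (SE) in MM.1S and by 0.30 ± 0.14 (SE) in RPMI8226. The RPMI8226 difference became 0.16 without replicate 1 of TSW and 0.44 without replicate 2 of TSW. The order of TSW and CO is therefore given as the order of these libraries.

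On the same log2 scale IL32 was higher than in MONO by 5.92 ± 0.11 (SE) in MM.1S TSW, 6.19 ± 0.06 in MM.1S CO, 2.86 ± 0.14 in RPMI8226 TSW and 3.17 ± 0.01 in RPMI8226 CO. Adding 1 to the RPKM makes this difference understate the change of low genes, as the ratios of IL32 in MM.1S show. Genes whose mean RPKM over all libraries of a line was 1 or more were ranked by it, and in MM.1S IL32 passed this filter only through TSW and CO. IL32 ranked 1 of 10153 genes in MM.1S, both in TSW and in CO. With a pseudocount of 0.1, which weighs low genes more, IL32 ranked 2 in TSW and 3 in CO, and with voom 2 and 12. The next genes in TSW were SOCS3 (5.86), a feedback inhibitor of cytokine signalling, SLC2A5 (3.95), a fructose transporter, and PVALB (3.73), a calcium-binding protein. In CO they were SOCS3 (5.95), the collagenase gene MMP1 (5.50) and the chemokine gene CXCL8 (4.63), and MMP1 and CXCL8 were listed at 0 in every MM.1S MONO library.

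In RPMI8226 the increase of IL32 ranked 60 of 10319 genes in TSW and 55 in CO. Just above it in TSW stood JUNB (2.93), ODF3B (2.91) and SLFN5 (2.88), and just below it OAS3 (2.86), RNF213 (2.85) and TRANK1 (2.85), of which OAS3 is an interferon-induced antiviral gene. In CO the neighbours in rank were STS (3.18), BHLHE40 (3.17) and GBP1 (3.17) above IL32, and IFI6 (3.16), TXNIP (3.15) and SERPINB1 (3.15) below it. The neighbours in TSW differ from IL32 by less than its SE of 0.14, so its place among them is not fixed. With a pseudocount of 0.1 the rank of IL32 became 127 in TSW and 134 in CO, and with voom 142 and 140.

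Within a library, all 20468 genes were also ranked by level. IL32 ranked between 11215 and 11883 in the MM.1S MONO libraries, where 13693 to 14676 genes were above 0. It ranked between 755 and 955 in MM.1S TSW and between 605 and 717 in MM.1S CO. In RPMI8226 it moved from ranks 1110 and 1126 in MONO to 112 and 136 in TSW and to 94 and 96 in CO. IL32 was thus among the 136 most abundant genes of every RPMI8226 coculture library.

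**Figure D2:**
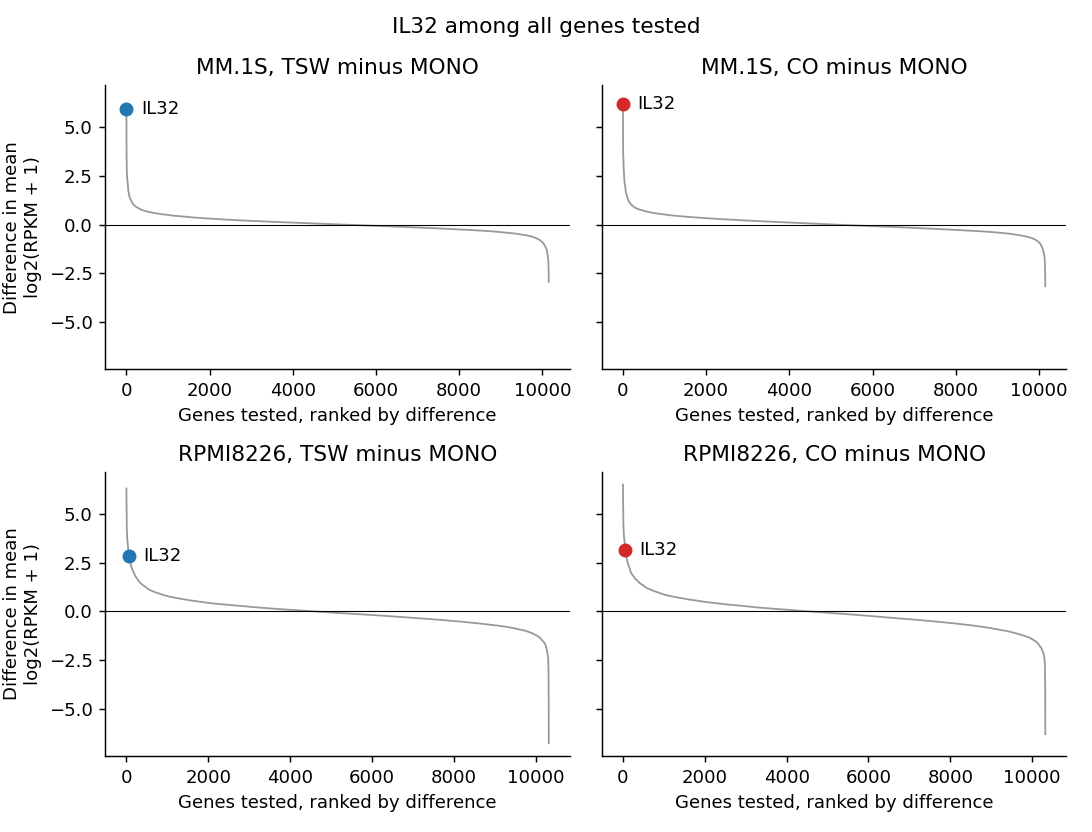
Difference in mean log2(RPKM + 1) of each coculture from MONO for all genes tested, ordered from the highest to the lowest, with IL32 marked. IL32 stands at 1 of 10153 in both MM.1S panels, and at 60 and 55 of 10319 in RPMI8226 TSW and CO.

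HS5 cells share the lower chamber with CO cells, so genes of stromal cells were examined beside IL32. Of 36 stromal markers, 34 were found. Their summed RPKM in MM.1S was 32.6, 36.9 and 37.1 in MONO, 24.3, 23.9 and 24.8 in TSW, and 181, 196 and 165 in CO. The most abundant of them was CAV1, the gene of caveolin, in MONO and TSW and MMP1 in CO. MMP1 was 0 in every MONO and TSW library of both lines, and reached 44.5, 46.9 and 41.0 in MM.1S CO and 35.1 and 53.2 in RPMI8226 CO. The fibrillar collagen gene COL1A2 was 0 in the same MONO and TSW libraries, at 10.8, 13.4 and 10.2 in MM.1S CO, and at 4.05 and 5.85 in RPMI8226 CO. In MM.1S TSW, where IL32 was between 67.3 and 84.9, 18, 19 and 19 of the 34 markers were at 0, COL1A2, COL3A1, COL6A1, COL6A2, LUM, DCN, POSTN, MMP1, MMP2, MMP3 and FAP among them. In MM.1S CO, 5, 5 and 1 were at 0.

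In RPMI8226 the summed RPKM of the stromal markers was 4049 and 4374 in MONO, 1708 and 1994 in TSW, and 2131 and 2332 in CO, and most of it came from fibronectin (FN1), the most abundant marker in every RPMI8226 library, MONO included. FN1 was at 3990 and 4310 in MONO, 1678 and 1962 in TSW, and 2007 and 2169 in CO. Markers at 0 numbered 19 and 20 in MONO, 16 and 17 in TSW, and 5 and 3 in CO, and COL1A2, COL3A1, LUM, DCN, POSTN, MMP1 and FAP were at 0 in both TSW libraries, where IL32 was at 418 and 507. THY1, the gene of CD90 that the sort selected against, was at or under 0.570 in every library. IL32 was therefore high in TSW libraries where MMP1 and COL1A2 were at 0, while stromal markers and IL32 were both higher in CO than in TSW. The methods of the study say that a small share of HS5 cells remained among the sorted CO cells. The part of the stromal markers in the difference of IL32 between CO and TSW was not tested, and no library of HS5 cells alone was analysed here.

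**Figure D3:**
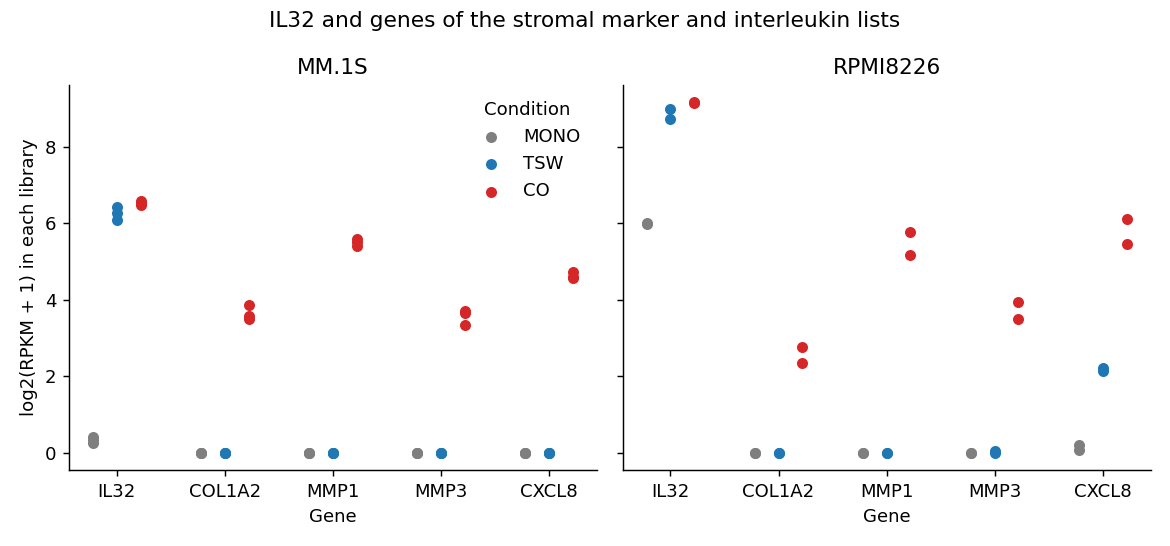
Level on the scale of log2(RPKM + 1) of IL32, of the stromal markers COL1A2, MMP1 and MMP3, and of the interleukin gene CXCL8 in each library, by condition and cell line. IL32 is high in TSW and CO, whereas MMP1 and COL1A2 are at 0 in MONO and TSW and above it in CO.

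The sorted cells were also examined for markers of plasma cells and of T or NK cells, the latter being known for IL32. Of 13 plasma cell markers, 12 had an RPKM of at least 1 in each MM.1S library and 11 in each RPMI8226 library. Their most abundant gene was JCHAIN, the joining chain of secreted immunoglobulin, throughout. Their summed RPKM was 6043, 5109 and 5337 in MM.1S MONO, 4167, 4045 and 4029 in TSW, and 3818, 3992 and 3661 in CO. In RPMI8226 it was 2557 and 2474 in MONO, 4535 and 4358 in TSW, and 4608 and 4524 in CO. The lower sum in the cocultures of MM.1S comes from JCHAIN, without which it was 1941, 1707 and 1583 in MONO, 2033, 2080 and 1904 in TSW, and 1798, 1982 and 1737 in CO.

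The 16 T and NK cell markers were low. Their summed RPKM in MM.1S was 6.05, 5.24 and 3.61 in MONO, 6.13, 4.35 and 3.75 in TSW, and 7.98, 7.36 and 6.44 in CO, with CD3E the most abundant in MONO and CD7 in TSW and CO. In RPMI8226 it was 13.4 and 11.8 in MONO, mostly from NCAM1, 3.21 and 3.04 in TSW, and 2.78 and 2.54 in CO. CD3D, a chain of the T cell receptor complex, and the granzyme gene GZMA were at 0 in all 15 libraries. Between 6 and 8 of the 16 were at 0 in each library. In MM.1S every CO library was above every MONO library in the sum of these markers, as in IL32, and the part of other cells in this was not tested. Without CD7, the MM.1S CO sums were 4.12, 3.75 and 3.70. The MONO sums include CD7 and were not computed without it, so these values are not set against them.

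Genes that act with or around IL32 were then taken from lists, and called with limma on log2(RPKM + 1) where the fold change was over 1.5 and the adjusted p under 0.05. The p-values measure the spread between libraries, which may be technical, since nothing in the labels says that they came from separate cultures. TSW and CO were each compared with the same MONO libraries. Among all genes tested in MM.1S, 6.48% were called higher and 4.16% lower in TSW vs MONO. The shares were 7.13% higher and 4.65% lower for CO vs MONO, and 0.374% higher and 0.0394% lower in CO vs TSW. In RPMI8226 TSW vs MONO gave 14.5% higher and 17.9% lower, CO vs MONO 16.4% and 22.9%, and CO vs TSW 1.9% and 2.39%. The excess of lower over higher calls in RPMI8226 turned round with median-of-ratios scaling, from 1500 higher and 1852 lower to 1710 and 1538 in TSW vs MONO, from 1693 and 2363 to 1994 and 1925 in CO vs MONO, and from 196 and 247 to 231 and 198 in CO vs TSW. The last split also became 249 and 173 with quantile normalization, and 383 and 335 without replicate 1 of TSW, where its 443 calls became 718. Of 42 other interleukin genes, 7 were tested in each line. In MM.1S limma called 2 higher and 2 lower in CO vs MONO, and 2 higher in CO vs TSW. In MM.1S TSW vs MONO it called 2 lower and 0 higher, where 1 was higher at an unadjusted p under 0.05 and 0 with voom. In RPMI8226 it called 3 higher and 1 lower in TSW, 6 higher and 1 lower in CO, and 4 higher in CO vs TSW. Genes such as IL1B, and IL6 in RPMI8226, passed the filter through CO alone. CXCL8 and IL10 passed it in RPMI8226 through the cocultures. The shares called higher in TSW and CO are therefore raised by the filter. With no filter, 1 of 30 was called higher in MM.1S TSW vs MONO and 4 of 32 in RPMI8226. In CO vs MONO these were 5 of 30 in MM.1S and 8 of 32 in RPMI8226, and in CO vs TSW 4 and 5. Over all genes with no filter, limma called 629 of 16587 higher in MM.1S TSW vs MONO, 771 in CO vs MONO and 128 in CO vs TSW, and 1588, 1854 and 210 of 16784 in RPMI8226.

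Among IL32 and these 42 genes, IL32 had the highest mean RPKM in 5 of the 6 groups of libraries. In MM.1S MONO it ranked 8 of 43, where IL16, a chemoattractant of CD4+ cells, was highest at 20.7. IL32 then stood 7.27 times above IL16 in MM.1S TSW, and 3.83 times above CXCL8 in MM.1S CO. In RPMI8226 it was 10.4 times above IL16 in MONO, 39.7 times above IL10 in TSW and 10.3 times above CXCL8 in CO. IL16 fell in MM.1S by 0.92 on the log2 scale in TSW (limma, adjusted p = 6.5e-05) and by 0.76 in CO (adjusted p = 2.4e-04). The other gene called lower in MM.1S was IL17D, whose log2 difference in TSW of -0.66 became -0.53, short of the fold change, without replicate 1 of TSW. In RPMI8226 the call of IL16 in TSW (-0.60) was lost without replicate 2 of MONO (-0.58), without replicate 1 of TSW (-0.54), with median-of-ratios scaling (-0.53) and with quantile normalization (-0.56), and its call in CO (-0.63) was lost with median-of-ratios scaling (-0.54). IL10, an anti-inflammatory cytokine, had an RPKM of 0.534 and 0.735 in RPMI8226 MONO, 10.7 and 12.6 in TSW, and 9.59 and 9.75 in CO. It rose there in both cocultures as IL32 did, by 2.95 and 2.71 (limma, adjusted p = 8.0e-09 and 1.1e-08). IL23A, which encodes a subunit of IL-23, rose in RPMI8226 by 1.02 and 1.07.

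CXCL8 and IL1B in both lines, and IL6 in RPMI8226, were far lower in TSW than in CO. The RPKM of CXCL8, a chemoattractant of neutrophils, was 0 in every MONO and TSW library of MM.1S, and 25.5, 23.0 and 22.7 in CO. RPMI8226 had 0.0470 and 0.158 in MONO, 3.42 and 3.66 in TSW, and 42.7 and 67.9 in CO. For IL1B the RPKM in CO was 9.89, 11.1 and 12.3 in MM.1S and 11.3 and 20.6 in RPMI8226, and no MONO or TSW library was above 0.474. IL6 was 0 in every RPMI8226 MONO and TSW library, and 6.44 and 6.25 in CO. CXCL8 and IL1B were thus high in the libraries in which MMP1 and COL1A2 were also present, and IL32 was high in TSW as well. The part of the stromal markers in these values was not tested.

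Of 13 genes whose proteins have been described as partners of IL-32, 7 were tested in each line. In MM.1S, 2 were called higher (ITGAV and STAT3) and 1 lower (PRKCD) in TSW, and the same 2 were called higher in CO. RPMI8226 had ITGAV and STAT3 higher in both cocultures, NOD2 and PRKCD lower in TSW, and PRKCD lower in CO. The median log2 difference of the 7 was 0.08 and 0.15 in MM.1S TSW and CO, and 0.04 and 0.01 in RPMI8226. The RPKM of STAT3, a transcription factor downstream of IL-6, was 14.9, 15.8 and 16 in MM.1S MONO, 44.2, 46.0 and 44.2 in TSW, and 39.9, 41.7 and 42.2 in CO. In RPMI8226 it was 17.6 and 17.9, then 58.2 and 59.6, then 54.8 and 54.9. STAT3 did not overlap between MONO and either coculture, and rose by 1.47 and 1.35 in MM.1S (limma, adjusted p = 4.5e-07 and 5.2e-07) and by 1.68 and 1.57 in RPMI8226 (adjusted p = 1.5e-08 and 1.8e-08).

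PRKCD, the gene of protein kinase C delta, fell by 2.34 and 2.37 in RPMI8226 TSW and CO and by 0.68 in MM.1S TSW, while IL32 rose. NOD2, an intracellular sensor of bacterial peptides, had a log2 difference of -0.67 in RPMI8226 TSW, and of -0.57 without replicate 2 of TSW, which ended its call. ITGAV, which encodes the integrin alpha V chain, had a log2 difference of 0.89 and 1.24 in RPMI8226. In MM.1S its RPKM was 1.79, 4.07 and 4.38 in MONO, 5.12, 5.56 and 5.79 in TSW, and 5.68, 5.40 and 6.17 in CO, and replicate 1 of MONO was low. Its log2 difference of 0.61 in TSW became 0.31, and that of 0.67 in CO became 0.37, without that library, which ended both calls. The call in TSW also failed without any of the 3 TSW libraries (adjusted p between 9.0e-02 and 1.3e-01 with limma) or any of the 3 CO libraries (between 6.7e-02 and 6.9e-02), and the call in CO failed without any of the 3 CO libraries (between 5.9e-02 and 9.9e-02). Both were also lost with no filter on low values (adjusted p = 1.0e-01 and 6.6e-02) and with quantile normalization (0.54 and 0.58), and that in TSW with a pseudocount of 0.1 (adjusted p = 5.7e-02). PRTN3, the gene of proteinase 3, and ITGB3, the beta 3 chain that pairs with alpha V, were both at or under 0.175 in every library.

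Of 25 receptor genes, some of them for cytokines that can induce IL32 and others for further members of the TNF and IL-6 families, TGF-beta and microbial products, 15 were tested in each line. In MM.1S, 2 were called higher (IL1RAP and IFNGR1) and 2 lower (TNFRSF17 and TNFRSF13B) in each coculture. The 2 higher in MM.1S TSW became 4 with a pseudocount of 0.1 and with voom. IL1RAP passed the filter in MM.1S through TSW and CO, which raises the shares. With no filter, 3 of 25 were called higher in each MM.1S coculture, beside 629 and 771 of 16587 genes. In RPMI8226, IL1RAP, IFNGR1 and IFNAR2 were called higher in TSW, IFNAR1 also in CO, and TNFRSF17 lower in both. The call of IFNAR1 was lost without replicate 2 of MONO (0.50). With no filter, 3 of 24 were called higher in RPMI8226 TSW and 4 of 24 in RPMI8226 CO, beside 1588 and 1854 of 16784 genes. All of the lower calls were those of TNFRSF17 and TNFRSF13B, which bind BAFF and APRIL and not the inducers of IL32 named above. The median of the 15 was 0.08 and 0.12 in MM.1S and 0.12 and 0.23 in RPMI8226. IL1RAP, the accessory chain of the IL-1 receptor, was low, at 0.404, 0.823 and 1.09 in MM.1S MONO, 2.54, 2.80 and 2.93 in TSW, and 3.01, 2.62 and 2.03 in CO. It rose by 1.10 and 1.01 in MM.1S (limma, adjusted p = 4.2e-04 and 7.1e-04) and by 0.94 and 1.21 in RPMI8226 (adjusted p = 1.5e-04 and 1.8e-05). IL1R1, the chain that binds IL-1, was at or under 0.330 in every library. IFNGR1, a chain of the interferon gamma receptor, had a difference of 0.62 in both MM.1S cocultures and of 0.54 in both with quantile normalization, which falls short of the fold change, and of 1.03 and 1.12 in RPMI8226.

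TNFRSF1A, the main TNF receptor, was between 28.9 and 36.9 in all libraries and was not called in any comparison. TNFRSF17, which encodes the plasma cell antigen BCMA, fell as IL32 rose, from 216, 145 and 157 in MM.1S MONO to 49.2, 48 and 47.4 in TSW and 36.8, 42.7 and 34.1 in CO. Its log2 difference was -1.80 and -2.14 in MM.1S, and -3.50 and -3.83 in RPMI8226. TNFRSF13B, the receptor TACI, had an RPKM of 122 in replicate 1 of MM.1S MONO and of 65.1 and 61.7 in the others, and its log2 difference of -0.79 in TSW and CO became -0.48 in both without replicate 1, which ended the calls. The call in TSW also failed without any of the 3 TSW libraries (limma, adjusted p between 5.0e-02 and 5.6e-02), and that in CO without replicate 1 of CO (adjusted p = 5.6e-02).

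Transcription factors that are known to act downstream of these receptors formed a list of 28 genes, of which 24 were tested in each line. In MM.1S, 10 were called higher and 1 lower in TSW. The 10 include BATF (0.60), whose call was lost in 12 of 16 alternatives, among them no filter, median-of-ratios scaling, quantile normalization, the replicate block and each of the 9 libraries left out but replicate 1 of MONO (0.44 to 0.67; limma, adjusted p between 5.0e-02 and 1.5e-01). In MM.1S CO, 8 were called higher and 0 lower, where 2 were lower at an unadjusted p under 0.05 and 0 with voom. In RPMI8226, 13 were called higher and 2 lower in TSW, and 15 higher and 1 lower in CO. FOS, called higher in each coculture of both lines, passed the filter through TSW and CO, which raises the shares. Of all genes tested, 6.48% and 7.13% were called higher in MM.1S TSW and CO, and 14.5% and 16.4% in RPMI8226. The shares called lower were 4.16% and 4.65% in MM.1S, and 17.9% and 22.9% in RPMI8226. The median of the 24 was 0.37 and 0.42 in MM.1S and 0.72 and 0.73 in RPMI8226, above the median of all genes tested in each case. The gene called lower in MM.1S TSW was REL, a subunit of NF-kB, with a difference of -0.60 whose call was lost with no filter on low values and without any of 7 of the 9 MM.1S libraries (-0.60 to -0.41; all but replicate 1 of MONO and replicate 3 of TSW). In RPMI8226, REL (-0.74) and IRF4 (-0.94) were called lower in TSW, and IRF4 (-0.93), a factor on which plasma cells depend, was the gene called lower in CO.

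JUNB, a member of the AP-1 family, had an RPKM of 17.8, 15.7 and 14.2 in MM.1S MONO, 81.8, 81.7 and 78.2 in TSW, and 76.4, 73.9 and 71.4 in CO. It rose by 2.28 and 2.15 in MM.1S (limma, adjusted p = 6.9e-08 and 5.2e-08) and by 2.93 and 2.94 in RPMI8226 (adjusted p = 1.3e-09 and 1.1e-09). HIF1A, the factor that responds to low oxygen, was at 3.51, 9.87 and 10.1 in MM.1S MONO, with replicate 1 apart, and between 16.4 and 19.4 in all 6 MM.1S cocultures. Its log2 difference was 1.22 and 1.11 in MM.1S (limma, adjusted p = 8.0e-03 and 1.2e-02), or 0.79 and 0.68 without replicate 1 of MONO, and 2.30 and 2.57 in RPMI8226. ATF4, a factor of the stress response, rose by 1.19 and 0.85 in MM.1S and by 0.69 and 0.75 in RPMI8226.

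Known targets of NF-kB did not all move with IL32 in MM.1S. Of 24 listed, 16 were tested in MM.1S, with 5 called higher and 5 lower in TSW, and 6 higher and 3 lower in CO. In RPMI8226 17 were tested, with 12 called higher and 2 lower in TSW, and 13 higher and 1 lower in CO. The median was 0.02 and -0.08 in MM.1S, close to that of all genes, and 1.05 and 0.90 in RPMI8226. With no filter, 23 were tested in each line. Limma then called 5 higher and 6 lower in MM.1S TSW, beside 629 and 446 of 16587 genes. In MM.1S CO it called 6 and 5, beside 771 and 497. In RPMI8226 it called 14 and 3 in TSW, beside 1588 and 1978 of 16784 genes, and 14 and 2 in CO, beside 1854 and 2501. ICAM1, an adhesion molecule, rose in both lines, from 3.45, 4.35 and 3.41 in MM.1S MONO to 36.3, 35.8 and 33.7 in TSW and 34.8, 37.3 and 32.2 in CO. Its log2 differences were 2.94 and 2.92 in MM.1S (limma, adjusted p = 2.5e-08 and 8.7e-09), and 1.72 and 1.65 in RPMI8226 (adjusted p = 3.5e-08 and 3.4e-08). BCL3, an atypical inhibitor of NF-kB, rose by 1.83 and 1.63 in MM.1S and 3.04 and 2.82 in RPMI8226. BIRC3, an inhibitor of apoptosis, rose by 1.10 and 1.30 in MM.1S and by 2.10 and 2.77 in RPMI8226. CCL5, a chemokine that T cells make, fell by 2.46 and 2.68 in MM.1S.

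Known targets of STAT3 gave more higher than lower calls. Of 16 listed, 10 were tested in MM.1S, where 6 were called higher in each coculture. No more than 1 had a lower value at an unadjusted p under 0.05 there, and voom called 0 lower, as limma did. In RPMI8226, 13 were tested, with 10 called higher and 1 lower (CCND1) in each coculture. In MM.1S, SOCS3 and BCL6 passed the filter through TSW and CO alone, as did BCL6 and IL10 in RPMI8226, which raises the shares. With no filter, 7 of 16 were called higher in each MM.1S coculture, beside 629 and 771 of 16587 genes. In RPMI8226 these were 12 of 16 in TSW and 11 of 16 in CO, beside 1588 and 1854 of 16784 genes. The RPKM of SOCS3 was 0.162, 0.115 and 0.110 in MM.1S MONO, 63.5, 66.9 and 62.7 in TSW, and 65.6, 71.9 and 68.4 in CO, levels near those of IL32 in each of the 3 conditions. In RPMI8226 the RPKM of SOCS3 was 1.82 and 1.31, then 50.9 and 53.8, then 50.5 and 53.1, where IL32 was far higher. SOCS3 rose by 5.86 and 5.95 in MM.1S (limma, adjusted p = 7.5e-12 and 6.3e-12) and by 4.39 and 4.37 in RPMI8226 (adjusted p = 3.1e-10 in both). PIM2, a survival kinase, rose by 1.32 and 1.06 in MM.1S and by 1.93 and 1.76 in RPMI8226.

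Genes induced by low oxygen were listed because hypoxia can raise IL32. Of 22, 17 were tested in MM.1S, with 2 called higher (VEGFA and ALDOC) and 2 lower (ADM and ANKRD37) in TSW, and the same genes and P4HA2 in CO. With no filter, 3 of 22 were called higher in TSW and 6 in CO, beside 629 and 771 of 16587 genes. In RPMI8226, 19 were tested, with 8 called higher in TSW and 10 higher and 1 lower (SLC2A1) in CO. For RPMI8226 TSW limma called 0 lower, where 2 were lower at an unadjusted p under 0.05 and 1 with voom. The median was 0.19 and 0.20 in MM.1S and 0.42 and 0.63 in RPMI8226. VEGFA, an angiogenic factor, rose by 0.93 and 0.95 in MM.1S (limma, adjusted p = 1.8e-05 and 1.5e-05) and by 0.71 and 0.78 in RPMI8226 (adjusted p = 1.6e-05 and 6.1e-06). SLC2A1, the glucose transporter GLUT1, had a log2 difference of 0.01 in both MM.1S cocultures and of -0.52 and -0.84 in RPMI8226. In MM.1S CO, the call of ALDOC (0.61) was lost without replicate 2 or 3 of MONO (0.58 and 0.57) and without replicate 2 of CO (0.53), and that of P4HA2 without replicate 2 or 3 of CO (0.55 and 0.56) and with quantile normalization (0.54). The call of ANKRD37 was lost in TSW without replicate 2 of TSW (-0.55) and in CO without replicate 3 of CO (-0.58).

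Genes that IL-32 protein is known to induce in monocytes numbered 12, of which 5 were tested in MM.1S and 7 in RPMI8226. In TSW, where IL32 was already high, 2 were called higher (CCL2 and ICAM1) and 1 lower (CCL3) in MM.1S, and 2 higher (CXCL8 and ICAM1) in RPMI8226. In CO, 4 were called higher and 1 lower in MM.1S, and all 7 tested higher in RPMI8226. In RPMI8226 limma called 0 lower in TSW and 0 in CO, where 0 and 0 were lower at an unadjusted p under 0.05, and 1 and 0 with voom. Most of these genes passed the filter through CO alone, so the shares called in CO are raised by the filter and not read as a change of the list. With no filter, 7 of 10 were called higher in CO vs MONO in each line, beside 771 of 16587 genes in MM.1S and 1854 of 16784 in RPMI8226. The calls in CO include CXCL8 and IL1B in both lines and IL6 in RPMI8226, which are also in the list of interleukin genes. These were high in the CO libraries in which MMP1 and COL1A2 were also present. The part of the stromal markers in these calls was not tested. CCL2, a chemoattractant of monocytes, had an RPKM of 0.296, 0.0701 and 0.101 in MM.1S MONO, 1.5, 1.4 and 1.93 in TSW, and 5.39, 6.0 and 4.06 in CO. In RPMI8226 it was 0 in both TSW libraries and 4.25 and 6.68 in CO, while IL32 was at 418 or more in both conditions.

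Between CO and TSW, the stromal list held the largest number of calls of any list in each line, but the lists differ in size. In RPMI8226, 6 of 7 tested genes that IL-32 can induce were called higher, a larger share than that of the stromal markers. The filter raises both shares. Of the stromal markers tested, limma called 14 of 17 higher in MM.1S and 8 of 13 in RPMI8226, and 0 lower in either line, with 0 lower at an unadjusted p under 0.05 and 0 with voom. In CO vs MONO it called 13 higher and 1 lower in MM.1S, and 10 higher and 2 lower in RPMI8226. Markers such as MMP1 and COL1A2 passed the filter through CO alone, which raises these shares, and with no filter 18 of 33 were called higher in CO vs TSW in MM.1S and 13 of 31 in RPMI8226, beside 128 of 16587 and 210 of 16784 of all genes. Where the filter was a mean RPKM of 5, these became 3 of 5 in MM.1S and 2 of 5 in RPMI8226. In TSW vs MONO it called 1 higher (LOX) and 3 lower in RPMI8226, and in MM.1S 0 higher and 2 lower, where 1 was higher at an unadjusted p under 0.05 and 1 with voom. Of the genes that IL-32 can induce, 6 of 10 were called higher with no filter in CO vs TSW in each line. The part of the stromal markers in these calls was not tested either. The call of CCL2 in MM.1S CO vs TSW was lost with a pseudocount of 0.1 (limma, adjusted p = 5.7e-02). Among the NF-kB targets, SOD2 was called higher and CCL3 lower in MM.1S, and BIRC3 higher in RPMI8226. The call of SOD2 (0.59) was lost without any of the 6 TSW and CO libraries (0.57 to 0.60, limma, adjusted p between 9.7e-02 and 1.6e-01), with a mean RPKM of at least 5 and with median-of-ratios scaling (0.58). That of BIRC3 (0.67) was lost without replicate 2 of TSW (0.50) or replicate 1 of CO (0.58). The RPMI8226 count of 1 NF-kB target higher became 3 with median-of-ratios scaling and without replicate 1 of TSW, 2 with a pseudocount of 0.1, quantile normalization, voom and without replicate 1 of CO, and 0 without replicate 2 of TSW, and 7 were higher at an unadjusted p under 0.05.

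In the lists of IL-32 partners, receptors, transcription factors, STAT3 targets and hypoxia genes, limma called 0 genes in CO vs TSW in either line, where 0.374% of all genes were called higher and 0.0394% lower in MM.1S, and 1.9% and 2.39% in RPMI8226. At an unadjusted p under 0.05, MM.1S had 1 partner higher, 2 receptors lower, 1 transcription factor higher and 2 lower, 1 STAT3 target higher and 1 lower, and 0 hypoxia genes. In RPMI8226 there were 1 partner higher, 4 receptors higher and 4 lower, 6 transcription factors higher and 3 lower, 2 STAT3 targets higher and 3 lower, and 9 hypoxia genes higher and 1 lower. Voom called 0 of them in MM.1S, and in RPMI8226 it called 1 transcription factor and 3 hypoxia genes higher. Limma also called some genes higher under other settings. In MM.1S these were 1 transcription factor, 1 STAT3 target and 1 hypoxia gene with no filter. In RPMI8226 they were 2 receptors and 2 hypoxia genes without replicate 1 of TSW, 1 transcription factor and 2 hypoxia genes with a pseudocount of 0.1, and 1 hypoxia gene each without replicate 1 of CO, with no filter, with median-of-ratios scaling and with quantile normalization.

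Plasma cell markers were called in both directions against MONO. In MM.1S, 3 of 12 tested were called higher and 2 lower in TSW, and 2 higher and 2 lower in CO, where the call of PRDM1 was lost without replicate 1 of MONO (0.53). In RPMI8226, 6 of 11 were called higher and 2 lower in each coculture. XBP1, which drives the secretory programme of plasma cells, rose with IL32 by 0.87 and 0.77 in MM.1S and by 1.24 and 1.08 in RPMI8226. JCHAIN fell in MM.1S, by 0.85 and 0.91, and had a log2 difference of 0.80 and 1.02 in RPMI8226. Of the T and NK cell markers, CD7 was the only gene tested in MM.1S, with a difference of 0.59 in TSW and 1.37 in CO. Its call in TSW was lost without replicate 1 (0.58) or 2 (0.53) of MONO, without replicate 1 (0.44) or 2 (0.60) of TSW, with median-of-ratios scaling (0.58) and with quantile normalization (0.55). NCAM1, the adhesion molecule CD56, fell in RPMI8226 by 2.89 and 2.98, so the summed level of T and NK cell markers fell there while IL32 rose.

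The genes beside IL32 on chromosome 16 were set beside it. Of the 5 genes on each side, 4 of the 10 were tested in MM.1S and 5 in RPMI8226. In each of the 4 comparisons with MONO limma called 0 higher and 1 lower. At an unadjusted p under 0.05, 0 were higher in either MM.1S comparison, 2 in RPMI8226 TSW and 0 in RPMI8226 CO, and voom called 0 higher in all 4. The shares of all genes called higher were 6.48% and 7.13% in MM.1S and 14.5% and 16.4% in RPMI8226, so 0 of so few genes says little about the neighbours. The gene called lower was THOC6, a subunit of the THO complex of mRNA export that ends 37653 bases before IL32 begins. It fell by 1.07 and 1.43 in RPMI8226 (limma, adjusted p = 2.6e-05 and 2.3e-06). In MM.1S its log2 difference was -0.66 in TSW and -0.84 in CO (limma, adjusted p = 2.2e-02 and 6.3e-03), and the call in TSW was lost without replicate 1 of MONO (-0.48), without replicate 3 of TSW (-0.52) and with no filter on low values (adjusted p = 5.3e-02).

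The nearest genes were MMP25, a membrane-bound metalloproteinase 4677 bases before IL32, and ZSCAN10, a zinc finger gene 19360 bases after it. MMP25 had an RPKM of 0.305 or less and ZSCAN10 of 0.0907 or less in every library, also where IL32 was at 418 or more. HCFC1R1 had a mean RPKM of 13.2, 14.9 and 12.3 in MM.1S MONO, TSW and CO and of 21.7, 23.3 and 19.7 in RPMI8226, and was not called. TNFRSF12A, the receptor of the TNF family member TWEAK, was not tested in MM.1S, with mean RPKM of 0.180, 0.995 and 1.24. In RPMI8226 its mean RPKM was 10.9, 15.9 and 12, and its log2 difference of 0.51 in TSW (limma, adjusted p = 2.4e-04) was short of the fold change.

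**Figure D4:**
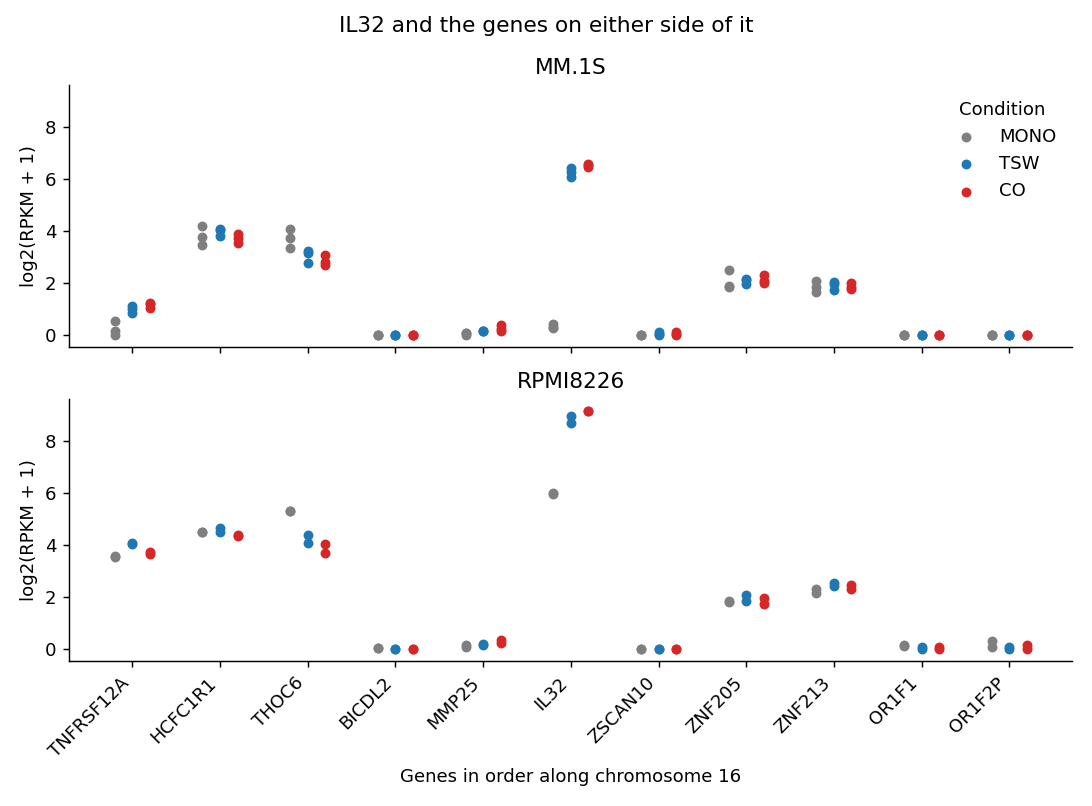
Values of log2(RPKM + 1) in each library for IL32 and the 5 genes on each side of it, in the order of the chromosome, by condition and cell line. IL32 changes between MONO and the cocultures by more than any of the 10 genes drawn beside it.

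The pattern of IL32 across libraries was set beside that of all 9396 genes with a mean RPKM of 1 or more in both lines, by Pearson's r on log2(RPKM + 1) over the 9 MM.1S libraries and the 6 RPMI8226 libraries. The MONO libraries stand apart from the rest in both lines and all genes share the same libraries, so a high r says little more than that a gene differed between MONO and the cocultures, and no p is given. In both lines 371 genes (3.95%) had an r over 0.9 with IL32. The 10 genes most like IL32 by the lower of both r were ABCA1, BCL6, PARP9, BHLHE40, OLFML2B, GBP2, VEGFA, IL13RA1, SOCS3 and ALPK1, and the lowest r among them was 0.9937, that of ALPK1 in RPMI8226. ABCA1 exports cholesterol, BCL6 is a transcriptional repressor of germinal centre B cells, GBP2 is a GTPase induced by interferon gamma, and IL13RA1 is a chain of the IL-13 receptor. All 10 were called higher in TSW and CO in both lines, which their choice fixes.

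The most like genes differed from IL32 in level. ABCA1 had a mean RPKM of 0.0981, 10.7 and 9.29 in MM.1S MONO, TSW and CO, and of 0.937, 20.2 and 23.9 in RPMI8226. BHLHE40, a transcriptional repressor, had 5.67, 35.7 and 37.4 in MM.1S and 7.80, 77.5 and 78.3 in RPMI8226. GBP2 had 2.15, 18.3 and 16.7 in MM.1S and 10.5, 132 and 147 in RPMI8226. In RPMI8226 none of the 10 reached the mean RPKM of IL32 in any condition, and in MM.1S SOCS3 came closest to it in TSW and CO. RefSeq promoter windows were at hand for 8 of the 10 (all but GBP2 and VEGFA). TGACGTCA was in 0 of these 8, the NF-kB letters were in 2 (BCL6 and ALPK1), and the letters of the hypoxia response element were in 3 (ABCA1, BCL6 and BHLHE40), where 21.4% of all windows hold the last. The STAT letters were in 2 (BCL6 and ALPK1), beside 7.66% of all windows, and those of AP-1, C/EBP, the composite, ISRE and the TATA box were in 1 each. A gene counts here if any of its windows holds a match, whereas the shares are of single windows. BCL6, PARP9 and SOCS3 have 2 windows each, as IL32 does, so counts and shares are not in the same unit. Absence of a match says only that these letters are not in the window.

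**Figure D5:**
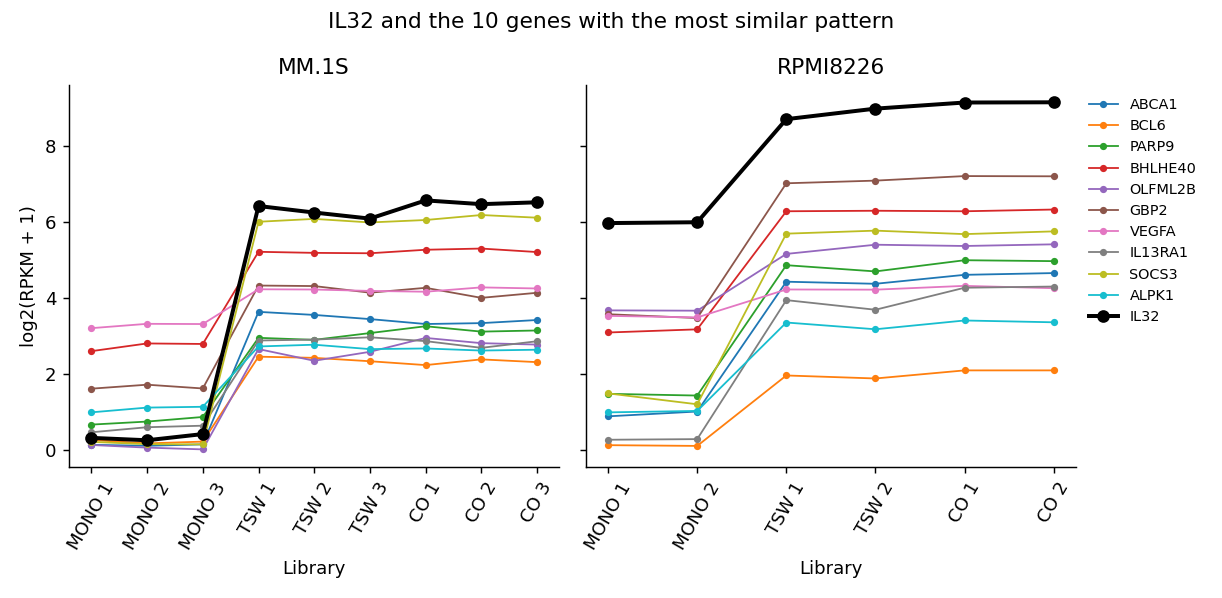
Level on the scale of log2(RPKM + 1) of IL32 and of the 10 genes most like it in each library, by cell line. All 11 genes lie lowest in MONO, and TSW and CO lie close together.

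A mean RPKM under 1 in MONO and of at least 10 in both cocultures was rare. In MM.1S, 10390 genes were under 1 in MONO, and 4 of them reached 10 in TSW and CO. These were IL32, SOCS3, SLC2A5 and PVALB. SLC2A5 went from a mean RPKM of 0.615 in MONO to 23.8 in TSW and 31.8 in CO, and PVALB from 0.992 to 24.1 and 22.0, so that IL32 and SOCS3 reached higher levels than either. In RPMI8226, 10257 genes were under 1 in MONO and 21 reached 10 in both cocultures. IL32 was not among these, since its RPKM in RPMI8226 MONO was 61.9 and 62.9, and no gene met the rule in both lines. ABCA1 and IL13RA1, both among the genes most like IL32, met it in RPMI8226.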

How the data were processed

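RNA-Seq libraries of MM.1S (3 per condition) and RPMI8226 (2 per condition) in MONO, TSW and CO were used, grouped by the labels and column names. Subread and featureCounts and the build hg38 are named in the submitters' processing notes, which give no version. The methods of the study do give a version for Subread. The authors deposited log2 values for 20468 genes, log2 of RPKM + 1 with 0.0001 added, where the RPKM made by the authors counts PETs on RefSeq transcripts. The design had assumed RPKM, and the offset was subtracted before use. The spacing of values within a library gave back the PETs, and 100% of those above 0 lay within 0.05 of a whole number.

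Genes were tested in limma 3.58.1 under R 4.3.3 (lmFit and eBayes with a trend, 3 conditions of a line in 1 fit) where the mean RPKM of a gene over the line was 1 or more. Calls needed a fold change over 1.5 and an adjusted p (Benjamini-Hochberg) under 0.05. The procedure was tested on simulated data. Counting intervals are 95% exact intervals and cover counting error only. IL32 and the gene lists were chosen with earlier results of these data known. Genes named are IL32, list members, 5 neighbours on each side, the 10 most like IL32, the genes next to it in rank, and those under 1 RPKM in MONO and at least 10 in both cocultures. Sequences and motif shares come from RefSeq promoter windows of GRCh38.p14, and exons from GENCODE. The letters of the cyclic AMP response element were added after the sequence was seen.

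Alternatives were a pseudocount of 0.1, no filter or one at a mean RPKM of 5, quantile normalization, median-of-ratios scaling, voom on recovered PETs, a block for replicate number, and each library left out. Python 3.11.15, numpy 2.4.6, pandas 2.3.3, scipy 1.17.1 and matplotlib 3.10.9 were used.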

Additional observations from a re-analysis of the deposited data

Results flagged for a closer look

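These genes of the lists moved in opposite directions in MM.1S and RPMI8226, with every coculture library of one line above its MONO libraries and every one of the other line below, whereas IL32 rose in both. The difference between the lines was not tested for any of them. In TSW vs MONO the log2 difference of TNFAIP3, an inhibitor of NF-kB signalling, was -0.86 in MM.1S and 0.71 in RPMI8226, and in CO vs MONO it was -1.0 and 0.82. That of CCL5 was -2.46 and 1.62 in TSW, and -2.68 and 1.66 in CO. For the hypoxia gene ANKRD37 the values were -0.67 and 0.90 in TSW, and -0.68 and 0.96 in CO. JCHAIN had -0.85 and 0.80 in TSW, and -0.91 and 1.02 in CO. FN1 went the other way in CO, with 2.27 in MM.1S, where its RPKM was low, and -0.99 in RPMI8226, where it was high. FN1 is a stromal marker, and others such as MMP1 and COL1A2 were also higher in MM.1S CO, and their part in its rise there was not tested.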

How the results depend on the processing

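IL32 stayed higher in TSW and CO than in MONO with the other pseudocount, both other scalings, voom and each library left out, the alternatives for which its difference was computed. Its log2 difference in MM.1S, 5.92 in TSW and 6.19 in CO, became 7.72 and 7.99 with a pseudocount of 0.1 and 8.08 and 8.35 with voom, which add less to the low MONO values. In RPMI8226 CO it was 3.17, and 3.18 with a pseudocount of 0.1, 3.27 with median-of-ratios scaling, 3.26 with quantile normalization and 3.18 with voom. The rank of IL32 by increase in MM.1S went from 1 to 2 in TSW and 3 in CO with a pseudocount of 0.1, and to 2 and 12 with voom. In RPMI8226 it went from 60 to 127 in TSW and from 55 to 134 in CO with the pseudocount, and to 142 and 140 with voom.

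With each library left out in turn, the log2 difference of IL32 ranged in MM.1S from 5.84 to 6.0 in TSW vs MONO, 6.15 to 6.23 in CO vs MONO and 0.18 to 0.35 in CO vs TSW. In RPMI8226 the ranges were 2.72 to 3.0, 3.15 to 3.18 and 0.16 to 0.44. Genes called ranged from 966 to 1492, 965 to 1696 and 34 to 51 in MM.1S, and from 3299 to 3418, 4007 to 4110 and 319 to 718 in RPMI8226. A condition left with 1 library was assumed to vary like the others.

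In MM.1S CO vs TSW 42 genes were called, and 134 with no filter and 7 with a mean RPKM of at least 5, since other genes were then tested. In RPMI8226 CO vs TSW 443 were called, and 672 with voom, where the cause was not tested. With a replicate block the calls were 1081, 1209 and 40 in MM.1S and 3353, 4059 and 448 in RPMI8226, against 1080, 1196, 42, 3352, 4056 and 443. Deviations of libraries with the same number had correlations of -0.38 to 0.286 in MM.1S and 0.164 to 0.271 in RPMI8226, so the numbers were not taken as paired.

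Over all alternatives, 13284 calls of named genes were remade, of which 13052 kept their side of the threshold, 105 were lost, 127 were gained and 0 reversed. Of 1914 counts of list genes called, 147 moved by over 1.5 times. The largest move was of 11 genes, in the stromal markers called higher in MM.1S CO vs TSW with a mean RPKM of at least 5, where fewer were tested. With 3 to 6 PETs of IL32 in each MM.1S MONO library, depth limits how large its ratio to MONO can be said to be.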
